A study of Homo sapiens with 54 samples.

Results

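Sensitive cells of DLD-1, a human colorectal cancer cell line, were compared after 24 h with 10 µM 5-fluorouracil (5-FU) or with 10 µM uracil. The members were chosen by the sample labels, and 6 of the 54 samples of the series belonged to them: 3 uracil samples and 3 5-FU samples. The series covered DLD-1 and 2 further colorectal cancer (CRC) lines, HT-29 and HCT-116, each in its original (sensitive) form and in a form grown in rising 5-FU concentrations (resistant). Each form received uracil, 5-FU, or 5-FU with irradiation, in triplicate, and poly(A)-selected RNA was sequenced with a directional library kit. The sensitive DLD-1 cells grew as adherent cultures in serum-supplemented DMEM, and the groups are described alike but for the added pyrimidine. The methods of the study give no culture, extraction or sequencing batches per sample. The resistant forms were kept in medium with 5-FU at a higher concentration than the 10 µM tested here. The replicates are described as biological triplicates of 1 cell line, with no statement of separate cultures, so the p-values measure only the spread between these samples.

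5-FU is an analogue of uracil that cells convert into fluorinated nucleotides. One of these nucleotides blocks thymidylate synthase, the enzyme that makes dTMP for DNA synthesis. Others are built into DNA, where uracil-DNA glycosylase excises them, and into RNA, where 5-FU is known to disturb the processing of ribosomal RNA precursors, tRNA modification and splicing.

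The 3 uracil samples held 56003696, 218518344 and 57377188 estimated counts and the 3 5-FU samples held 86673615, 60125999 and 48663122. Defining markers of colon epithelium were present in every sample. EPCAM stood at 764 to 852 TPM (transcript abundance corrected for transcript length and for library size) and KRT8 at 2562 to 3040 TPM, while GPA33 did not exceed 0.341 TPM. The 10 epithelial markers summed to 6777 to 7078 TPM under uracil and to 7280 to 7522 TPM under 5-FU. The listed fibroblast, leukocyte and endothelial markers summed to at most 2.39, 10.7 and 1.14 TPM in any sample, PTPRC, the common leukocyte antigen, did not exceed 0.0700 TPM, and LUM and KDR were at 0 in all 6. One library stood apart for a few genes: LYZ was at 6.57 TPM in uracil replicate 1 and at 0.201 TPM or less in the other 5, against 1507 ± 74.3 TPM (SD, n = 3) in uracil-treated HT-29.

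With edgeR's quasi-likelihood test, 580 genes were higher and 298 were lower under 5-FU among 21814 tested genes (called where the Benjamini-Hochberg adjusted p did not exceed 0.01 and the log2 fold change reached 1 in either direction). These are 2.66% and 1.37% of the tested genes, the background against which the members of each gene list are read below. At the adjusted p alone, 14.4% of the tested genes were higher and 20.3% lower. Of the called genes, 338 higher and 220 lower ones averaged 1 TPM or more in one of the groups. With library size alone as scaling, the median over all tested genes went from 0.01 to 0.12 on the log2 scale and turned the split into 758 higher and 212 lower. Fold changes below are on the count scale with TMM scaling. The TPM of the tested genes rose by a median of 0.13 on the log2 scale, so TPM means and log2 fold changes of a gene can differ by that much or more.

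TYMS, the gene of the enzyme that 5-FU blocks, did not pass the test. It stood at 285, 274 and 280 TPM under uracil and at 278, 284 and 293 TPM under 5-FU, and the groups overlapped (log2 fold change -0.08 ± 0.06 SE, adjusted p = 0.266, edgeR). TK1 (-0.05), RRM2 (0.07) and TYMP (0.05) gave adjusted p between 0.392 and 0.801 in the same test. With library size alone as scaling the small values of TYMS (0.02) and TK1 (0.05) turned positive. UNG, the uracil-DNA glycosylase, fell from 57.7 ± 1.10 to 47.5 ± 0.433 TPM (SD, n = 3 each; log2 -0.40, adjusted p = 7.12e-06, edgeR), and DUT, which destroys dUTP, had a log2 fold change of -0.33 (adjusted p = 9.49e-06, edgeR). Neither reached the fold threshold.

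Of the 21 tested genes for 5-FU activation, breakdown and transport, 0 were called. UPP1, uridine phosphorylase, had the largest rise among them, from 24.3, 25.2 and 25.1 TPM to 43.8, 47.4 and 42.8 TPM (log2 0.70 ± 0.05, adjusted p = 7.56e-10, edgeR). UCK2, uridine-cytidine kinase, had a log2 fold change of -0.52 (adjusted p = 1.51e-08, edgeR). In the 35 tested genes for thymidylate, folate and dNTP supply, 2 were lower, among them MTHFD2, a mitochondrial folate enzyme (219 ± 9.98 to 115 ± 3.43 TPM, log2 -1.06). The median of that list was -0.20, against 0.01 over all tested genes.

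YAP and TAZ are transcriptional coactivators that report cell shape, tension and contact, and most of their listed targets rose. Of 21 tested members 5 were higher and 0 lower, and at the adjusted p alone 19 rose and 1, NUAK2, fell (median log2 fold change 0.47). CCN1, a secreted matrix protein, went from 25.8, 24.5 and 23.2 TPM under uracil to 130, 141 and 121 TPM under 5-FU. The lowest 5-FU sample lay far above the highest uracil sample (log2 2.30 ± 0.08, adjusted p = 3.05e-14, edgeR). ANKRD1, a nuclear ankyrin-repeat protein, went from 2.75, 2.75 and 3.03 TPM to 18.4, 19.4 and 17.9 TPM (log2 2.61 ± 0.13, adjusted p = 3.33e-12, edgeR). CCN2, connective tissue growth factor, rose from 3.34 ± 0.131 to 9.99 ± 0.804 TPM, and F3, tissue factor, from 56.7 ± 1.79 to 143 ± 8.59 TPM (SD, n = 3). The groups of all 4 genes were apart. The fifth, AMOTL1, was called at a level below 0.1 TPM, and its groups overlapped.

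VGLL1, a cofactor of the TEAD factors through which YAP acts, was among the 10 largest rises (0.262 ± 0.114 to 2.74 ± 0.169 TPM, log2 3.87). WWC2, a scaffold upstream in the same pathway, rose from 6.33 ± 1.01 to 19.9 ± 2.05 TPM (log2 1.57 ± 0.10, adjusted p = 5.78e-11, edgeR). Genes of the contractile apparatus were looked at as a list after their values were seen. Of 18 listed, 15 were tested, 4 were higher and 0 lower, and their median log2 fold change was 0.43. CALD1, caldesmon, which binds actin and tropomyosin, went from 3.80, 4.40 and 4.06 TPM to 14.7, 15.1 and 14.1 TPM (log2 2.05 ± 0.11, adjusted p = 3.94e-12, edgeR). The other 3 were TPM2, a tropomyosin (4.73 to 14.1 TPM), MYLK, the myosin light chain kinase (2.89 to 6.76 TPM), and MYL9, a myosin light chain (0.531 to 1.73 TPM). TNFRSF12A, the TWEAK receptor, was among the 5 most abundant called rises (102 ± 3.26 to 230 ± 6.66 TPM).

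**Figure D1:**
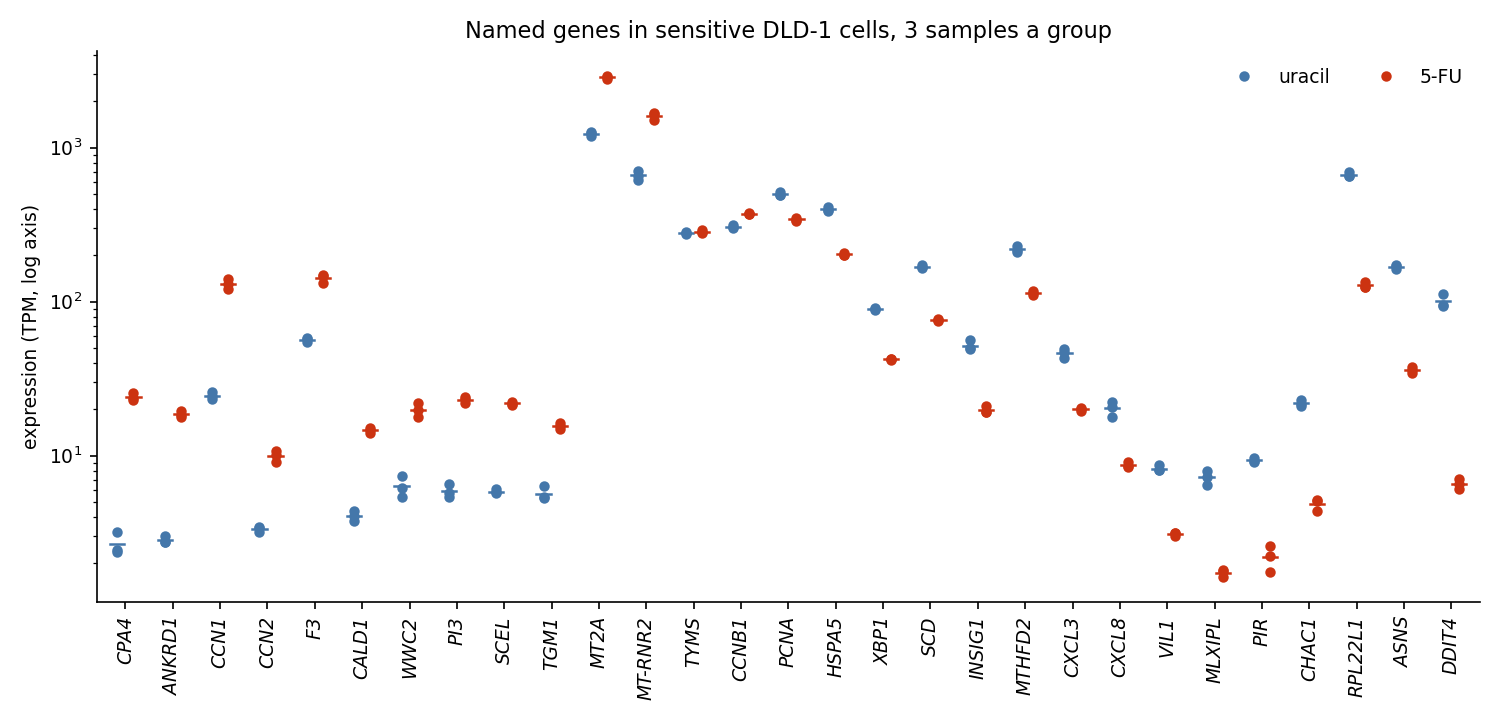
TPM (log axis) of 29 named genes in each sample of sensitive DLD-1 under uracil or 5-FU; dots are the 3 samples of a group and short lines their means. The samples of CCN1 lie at 23.2 to 25.8 TPM under uracil and at 121 to 141 TPM under 5-FU, while those of TYMS overlap.

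Genes of stratified epithelia, which make layered and cornifying tissues and are little used in colon, went both ways. In the list of 33 tested members, 5 were higher and 1 lower, with a median log2 fold change of 0.15, and at the adjusted p alone 10 rose and 5 fell. PI3, the protease inhibitor elafin, went from 5.41, 6.60 and 5.73 TPM to 21.9, 24.0 and 23.4 TPM (log2 1.84 ± 0.13, adjusted p = 4.57e-10, edgeR). SCEL, sciellin of the cornified envelope, rose from 5.86 ± 0.166 to 21.9 ± 0.580 TPM, TGM1, the transglutaminase that cross-links that envelope, from 5.68 ± 0.607 to 15.6 ± 0.723 TPM, and CLDN1, a tight-junction claudin, from 6.63 ± 0.541 to 14.4 ± 0.202 TPM. SPRR3 was called higher at 0.480 TPM and PKP1, plakophilin 1, lower at 0.0566 TPM. Of 17 tested keratins 5 were higher and 0 lower (KRT4, KRT13, KRT15, KRT78 and KRT81), all at under 5 TPM, while the abundant KRT8 (log2 0.09), KRT18 (-0.07) and KRT19 (-0.06) did not pass the test.

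Genes of the intestinal lists went both ways. VIL1, villin of the brush border, fell from 8.06, 8.66 and 8.05 TPM to 3.03, 3.15 and 3.16 TPM (log2 -1.44 ± 0.14, adjusted p = 5.33e-08, edgeR). ALPP, the placental alkaline phosphatase, rose from 19.9 ± 0.460 to 53.9 ± 2.29 TPM (log2 1.33). These were the 2 called members of the 22 tested genes listed for absorptive differentiation. In that list 6 rose and 3 fell at the adjusted p alone, and the median log2 fold change was 0.25. In the secretory list of 24, SPINK4, a goblet cell inhibitor, fell from 3.70 ± 0.650 to 1.64 ± 0.308 TPM, HES2 was called lower at 0.451 TPM, and MUC2 was called higher at 0.123 TPM, where its TPM means did not rise.

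WNT signalling maintains the intestinal stem cells. Of 26 tested WNT targets and intestinal stem genes 0 were higher and 3 lower, the median log2 fold change was -0.29, and at the adjusted p alone 15 fell and 5 rose (CCND1, NKD2, CD44, MSX1 and BMI1). The 3 called genes all encode inhibitors within the pathway. NOTUM, which inactivates WNT ligands, fell from 1.96, 2.09 and 1.99 TPM to 0.472, 0.393 and 0.696 TPM (log2 -2.25 ± 0.21, adjusted p = 2.31e-08, edgeR). APCDD1, a membrane inhibitor, fell from 3.63 ± 0.454 to 1.36 ± 0.0291 TPM and NKD1, a cytoplasmic one, from 10.4 ± 1.28 to 6.28 ± 0.645 TPM. AXIN2 (289 to 184 TPM, log2 -0.76) and MYC (99.4 to 69.5 TPM, log2 -0.64), picked for their abundance after their values were seen, passed the adjusted p alone.

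ATF4 is a stress-induced factor that drives amino acid synthesis and uptake, and the list of its targets held the most calls: 21 of 39 tested members were lower and 1, PPP1R15A, was higher (median log2 fold change -1.08). DDIT4, an inhibitor of mTORC1, fell the furthest of all genes at 1 TPM or more, from 94.4, 94.5 and 113 TPM to 6.60, 6.08 and 7.06 TPM (log2 -4.06 ± 0.24, adjusted p = 3.66e-11, edgeR). ASNS, asparagine synthetase, fell from 169 ± 4.35 to 36.2 ± 1.53 TPM and CHAC1, which degrades glutathione, from 21.9 ± 0.986 to 4.87 ± 0.409 TPM. SLC1A5, the glutamine carrier, was among the 5 most abundant called falls (242 ± 6.94 to 123 ± 1.11 TPM). PPP1R15A, the eIF2α phosphatase subunit GADD34, moved against the list, from 22.3 ± 0.269 to 67.7 ± 3.54 TPM.

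Cytosolic tRNA synthetases, which charge tRNAs with amino acids, fell as a group: 5 of 20 were lower (2 with library size alone as scaling) and 0 higher, 17 fell at the adjusted p alone, and the median log2 fold change was -0.60. GARS went from 257, 248 and 252 TPM to 120, 124 and 122 TPM (log2 -1.18 ± 0.05, adjusted p = 1.06e-13, edgeR). CARS (-1.24), YARS (-1.05), MARS (-1.04) and AARS (-1.01) were the others. Of 31 tested chaperones and ATF6 or XBP1 targets of the endoplasmic reticulum, 3 were lower and 0 higher, and at the adjusted p alone 28 fell and 1, OS9, rose (median -0.47). HSPA5, the chaperone BiP, went from 409, 390 and 393 TPM to 201, 200 and 208 TPM (log2 -1.07 ± 0.04, adjusted p = 3.06e-14, edgeR). XBP1, the transcription factor of the unfolded protein response, fell from 89.5 ± 1.26 to 42.3 ± 0.341 TPM, and DERL3 from 1.00 ± 0.0318 to 0.380 ± 0.197 TPM. With library size alone as scaling, YARS (-0.95), MARS (-0.94), HSPA5 (-0.97), SLC1A5 (-0.98) and MTHFD2 (-0.96) ended just short of the fold threshold.

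Genes of lipid synthesis seldom reached the fold threshold. Of 29 tested cholesterol synthesis genes 1 was called lower, but 24 fell and 0 rose at the adjusted p alone, with a median log2 fold change of -0.48. INSIG1, the sterol sensor that retains SREBP, went from 49.98, 49.2 and 56.4 TPM to 19.1, 19.1 and 21.1 TPM (log2 -1.51 ± 0.06, adjusted p = 5.23e-14, edgeR). SCD, the stearoyl-CoA desaturase, was the 1 called member of 25 fatty acid synthesis genes, of which 13 fell and 3 rose at the adjusted p alone, with 169 ± 3.93 TPM under uracil and 76.0 ± 1.21 TPM under 5-FU. Outside both lipid lists, MLXIPL, the carbohydrate-responsive factor ChREBP, fell from 7.26 ± 0.772 to 1.74 ± 0.0866 TPM (log2 -2.13). VLDLR, a lipoprotein receptor that is counted in the ATF4 list above, fell from 5.16 ± 0.200 to 1.51 ± 0.0444 TPM (log2 -1.91).

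Of 38 tested NF-kB chemokine and feedback genes 3, all chemokines, were lower and 0 higher, with a median log2 fold change of -0.17, and at the adjusted p alone 18 fell and 9 rose. CXCL3 went from 49.4, 47.3 and 43.1 TPM to 20.1, 19.5 and 20.4 TPM (log2 -1.31 ± 0.10, adjusted p = 2.33e-09, edgeR). CXCL8, interleukin 8, fell from 20.3 ± 2.21 to 8.77 ± 0.355 TPM and CXCL2 from 17.9 ± 1.05 to 7.24 ± 0.739 TPM. In the 40 tested interferon-stimulated genes, DDX60 was lower and TRIM22 higher, both at about 1 TPM or less, and the median was 0.08. Their calls rested on single libraries: DDX60 had a log2 fold change of -0.95 without 5-FU replicate 1 and of -0.97 without uracil replicate 1, under the threshold, and TRIM22 had adjusted p of 0.0328 without 5-FU replicate 2 and 0.0173 without uracil replicate 2 (edgeR). MT2A, the main metallothionein, rose from 1261, 1244 and 1199 TPM to 2790, 2928 and 2857 TPM (log2 1.10 ± 0.09, adjusted p = 3.69e-09, edgeR), the only one of 9 tested genes of its list to be called. The median log2 fold change of that list was -0.24, and at the adjusted p alone 4 members fell and 1 rose.

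Of 34 tested NRF2 targets, which protect against oxidants, 2 were lower and 0 higher. At the adjusted p alone 17 fell and 2 rose, and the median log2 fold change was -0.24. PIR, pirin, fell from 9.13, 9.25 and 9.72 TPM to 1.76, 2.22 and 2.60 TPM (log2 -2.24 ± 0.13, adjusted p = 2.28e-11, edgeR). GPX2, a glutathione peroxidase, was at 7.24, 1.38 and 1.59 TPM under uracil and at 0.717, 0.884 and 0.570 TPM under 5-FU. Its highest value came from uracil replicate 1, the library that also held LYZ, and without that library its log2 fold change was -1.07 in place of -2.16 and no longer passed (adjusted p = 0.0114, edgeR). GPX2 stood at 1073 ± 49.7 TPM in uracil-treated HT-29, and the part of such RNA in the result was not tested. Among 37 glycolysis and hypoxia-induced genes, 1 was called in each direction: ANGPTL4 rose (2.83 ± 0.381 to 8.18 ± 0.613 TPM) and EGLN3 fell (12.6 ± 1.65 to 4.84 ± 0.673 TPM). At the adjusted p alone 19 of that list fell and 5 rose (median log2 fold change -0.19).

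**Figure D2:**
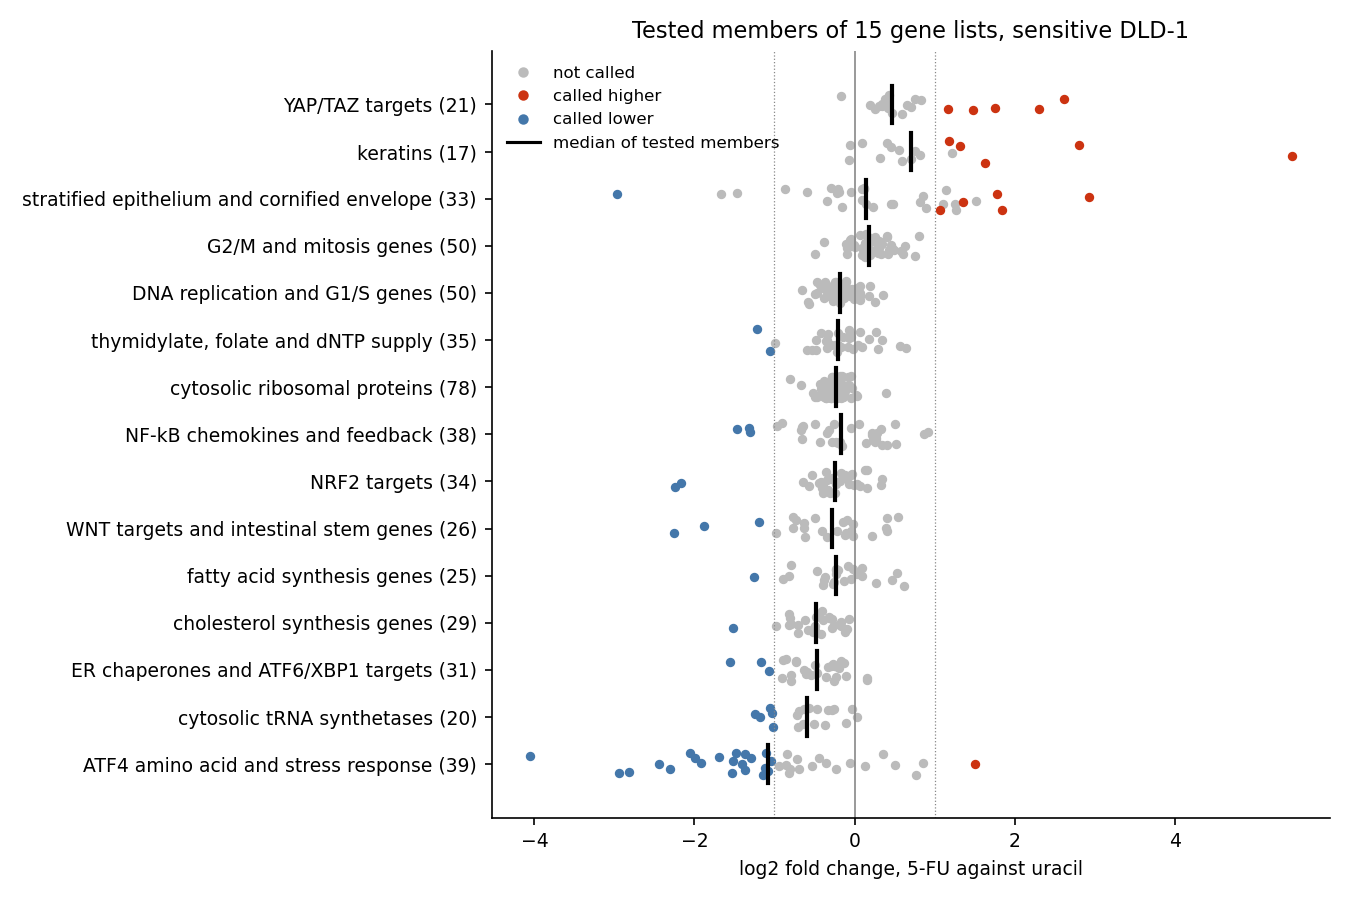
Log2 fold change (5-FU against uracil) of each tested member of 15 gene lists, with the number tested in brackets; black bars are medians and dotted lines mark the fold threshold. The ATF4 median lies at -1.08, the YAP/TAZ median at 0.47, and the cell cycle lists hold 0 called members.

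No listed cell cycle gene reached the fold threshold with a passing test. Of 50 tested G2/M and mitosis genes 0 were called, with a median log2 fold change of 0.18, and at the adjusted p alone 28 rose and 2 fell (PSRC1 and HMMR). CCNB1, cyclin B1, stood at 313, 301 and 307 TPM under uracil and at 370, 373 and 379 TPM under 5-FU (log2 0.20 ± 0.06, adjusted p = 0.00725, edgeR). Of 50 DNA replication and G1/S genes 0 were called as well, with a median of -0.18, and at the adjusted p alone 28 fell and 3 rose (ORC6, TIPIN and E2F8). PCNA, the replication clamp, fell from 502 ± 15.2 to 342 ± 8.32 TPM (log2 -0.65), while MCM4 had a log2 fold change of -0.16. Among 38 checkpoint and recombination repair genes and 28 genes of mismatch and base excision repair, 0 were called.

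BBC3, the pro-apoptotic PUMA, fell from 10.5 ± 0.623 to 5.79 ± 0.579 TPM (log2 -1.07; -0.97 with library size alone). CDKN1A, the cell cycle inhibitor p21, picked as well known after values were seen, stood at 8.06, 7.25 and 8.02 TPM under uracil and at 6.61, 5.98 and 6.56 TPM under 5-FU (log2 -0.37 ± 0.20, adjusted p = 0.140, edgeR). In the list of 35 apoptosis genes 0 were called, and at the adjusted p alone 12 fell and 4 rose (median log2 fold change -0.11). BCL2L1, which encodes BCL-XL, was among those that rose, from 104 ± 1.23 to 159 ± 3.05 TPM. It did not reach the fold threshold (log2 0.53, adjusted p = 1.75e-06, edgeR).

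Cytosolic ribosomal protein mRNAs fell by small amounts: of 78 tested, 0 were called, 61 fell and 0 rose at the adjusted p alone, and the median log2 fold change was -0.24. RPL41 (0.03) and RPS2 (0.02), the most abundant, did not pass. RPL22L1, the paralogue of RPL22, is kept outside that list and fell from 694, 650 and 651 TPM to 124, 125 and 135 TPM (log2 -2.46 ± 0.05, adjusted p = 2.24e-18, edgeR). RPL22 itself, a member of the list looked at for that reason, stood at 623 ± 15.3 TPM under uracil and at 639 ± 46.7 TPM under 5-FU (log2 -0.12, adjusted p = 0.0751, edgeR). The 68 ribosome biogenesis genes held 0 called members, and NPM1, nucleophosmin, had a log2 fold change of -0.44.

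RNA that matches the 5′ external spacer of the ribosomal RNA unit rose, and this was found after the values were seen. Ribosomal RNA is transcribed as one precursor from which external and internal spacers are cut away, leaving 18S, 5.8S and 28S. Aligned with BLAST to the RefSeq unit RNA45SN2, 9 tested genes matched over at least 60 bases at 90% identity or more; 76.8% of the tested genes had a GENCODE 44 transcript under the same symbol and could be searched. The 5 that matched the 5′ external spacer were called higher and the 4 that matched 5.8S were not. Only the longest match of each gene was kept. Of these 9 transcripts, MIR663AHG aligned over 16.8% of its length and the others over all of it. No searched gene had its longest match in another spacer, and shorter matches were not looked at.

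MIR3648-1, which lies whole in that spacer, stood at 15.9, 22.3 and 26.3 TPM under uracil and at 113, 71.05 and 107 TPM under 5-FU (log2 1.99 ± 0.21, adjusted p = 1.61e-07, edgeR). Its copy MIR3648-2 has the same sequence and identical values, so the reads of both cannot be told apart. MIR663A, 97.8% identical to the spacer over its 93 bases, went from 54.4, 39.8 and 71.1 TPM to 259, 294 and 269 TPM (log2 2.38 ± 0.22, adjusted p = 1.49e-08, edgeR). MIR663B (log2 2.16) and MIR663AHG (log2 1.56), the host transcript of MIR663A, were each 92.2% identical to the spacer, over 115 and 206 bases, and reads of these genes are divided by estimate. The 4 genes of 5.8S, RNA5-8SN2 among them, held identical values and stood at 435, 273 and 244 TPM under uracil and at 340, 296 and 483 TPM under 5-FU, with overlapping groups (log2 0.09 ± 0.23, adjusted p = 0.781, edgeR). The library was poly(A)-selected, and mature miRNAs were not measured.

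Mitochondrial ribosomal RNA also rose. MT-RNR2, the large subunit RNA, went from 656, 706 and 617 TPM to 1643, 1668 and 1510 TPM (log2 1.18 ± 0.11, adjusted p = 2.67e-08, edgeR). MT-TL1, the tRNA encoded next to it, went from 122, 128 and 122 TPM to 399, 436 and 203 TPM (log2 1.64), and MT-TL2 rose from 62.8 ± 24.3 to 135 ± 34.4 TPM. MT-RNR1, the small subunit RNA, rose less (log2 0.50 ± 0.12, adjusted p = 0.00227, edgeR). Of the 13 mitochondrially encoded mRNAs 0 were called, with a median log2 fold change of -0.02, which turned to 0.08 with library size alone and to 0.04 without uracil replicate 2.

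**Figure D3:**
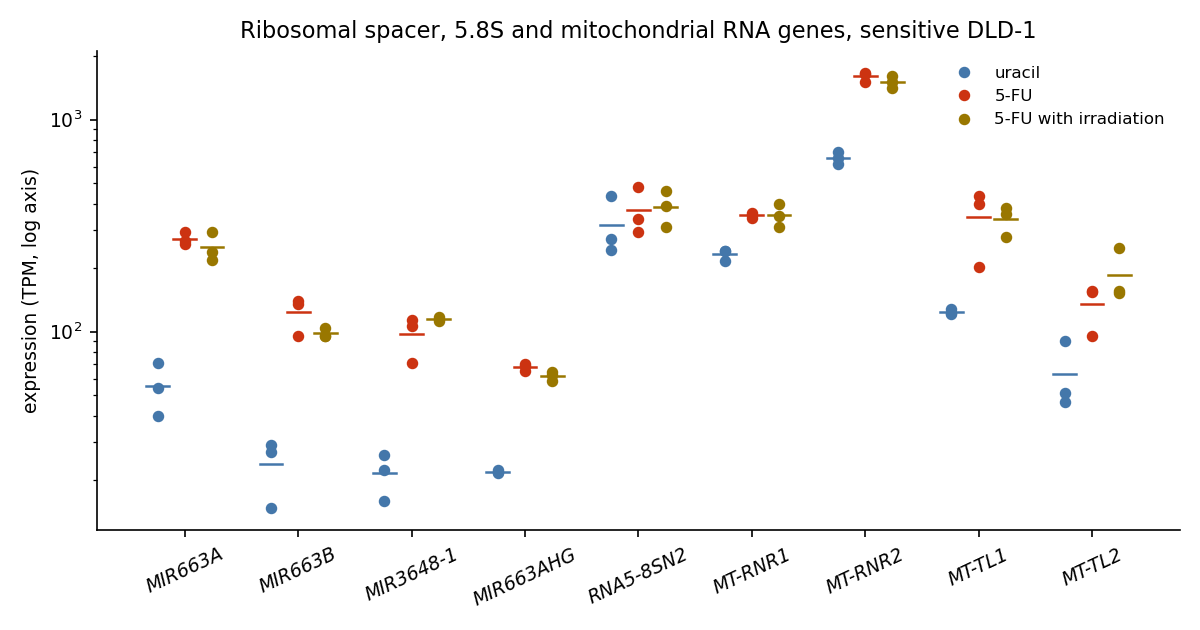
TPM (log axis) of ribosomal spacer, 5.8S and mitochondrial RNA genes in sensitive DLD-1; dots are the 3 samples of each treatment and lines their means. MIR663A lies at 39.8 to 71.1 TPM under uracil and at 259 to 294 TPM under 5-FU, while the 5.8S gene RNA5-8SN2 overlaps between the groups.

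On the TPM scale, where the tested genes rose by a median of 0.13 (log2), more genes reached 1 TPM under 5-FU: 16303 to 16668 genes did so in the 5-FU samples and 15571 to 15849 in the uracil samples, although the deepest library was a uracil one. Genes named only after a clone, mostly noncoding and uncharacterised, supplied many of the calls, with 176 of 4650 tested higher (3.78%) and 36 lower (0.774%). For genes with LINC names the counts were 39 and 6 of 587 (6.64% and 1.02%). For other symbols, without antisense, divergent-transcript or mitochondrial names, they were 344 and 244 of 15815 (2.18% and 1.54%). The classes differed in level, with medians under uracil of 0.675 TPM (clone names), 0.470 TPM (LINC names) and 14.1 TPM (these other symbols). By transcript class, protein-coding transcripts took 88.1% ± 0.330 of the estimated counts under uracil and 87.0% ± 0.213 under 5-FU, retained-intron transcripts 4.39% ± 0.218 and 4.96% ± 0.121, and lncRNA 1.29% ± 0.0383 and 1.49% ± 0.0278 (SD, n = 3). In these 3 classes the groups did not overlap, and each exact permutation test (two-sided) gave p = 0.1, the smallest that 3 against 3 allows.

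The largest rises at 1 TPM or more were led by KRT4, which was listed at 0 in 1 uracil sample, AC130324.3, a clone-named gene that lost its call in 8 of 13 other fits, and VGLL1. CPA4, a carboxypeptidase, was the most abundant of these 10, with 3.20, 2.45 and 2.38 TPM under uracil and 23.6, 25.6 and 23.2 TPM under 5-FU (log2 3.03 ± 0.18, adjusted p = 2.35e-11, edgeR). AC092807.3, ANO2, an anion channel, UPK2, a urothelial plaque protein, CASQ1, a calcium store protein of muscle, and RGS22, a regulator of G-protein signalling, had log2 fold changes between 2.66 and 2.84 at 1.18 to 4.43 TPM. The largest falls besides DDIT4, RPL22L1 and ASNS were ADM2 (1.84 to 0.281 TPM), FGF20, a growth factor (2.01 to 0.490 TPM), KCNQ1, a potassium channel (4.32 to 1.64 TPM), the mitochondrial NDUFA4L2, the anion transporter SLC22A11, the clone-named AC006449.7, whose call was lost without 5-FU replicate 1, and the ribosomal pseudogene RPS3AP26, which shares reads with its parent gene by estimate.

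Promoters of tested genes were searched for 8 short motifs in the 300 bases around the start site given by RefSeq (250 before and 50 after, GRCh38.p14), on both strands. Sequences were found for 269 higher, 191 lower and 12563 tested genes. The AP-1 motif TGAGTCA, which reads TGACTCA on the other strand, was in 8.92% of the promoters of higher genes, 4.19% of lower ones and 3.49% of all. The ATF4 and CEBP motif TGATGNAA was in 6.32%, 4.19% and 1.85%. Within the ATF4 list it was in 3 (ASNS, CHAC1 and FGF21) of the 17 called lower genes with a sequence. Over the whole list it was in 6 of 33 members with a sequence. The sterol motif TCACNCCA (4.09%, 4.19% and 3.57%), the antioxidant motif TGACNNNGC (15.99%, 10.5% and 14.7%), the CHR motif TTTGAA (11.9%, 10.5% and 10.1%) and the hypoxia core ACGTG (23.0%, 24.1% and 25.7%) were closer to all promoters, and the E2F motifs TTTCCCGC (0.743%, 1.05% and 2.47%) and TTTGGCGC (1.12%, 1.05% and 1.01%) were rare. A promoter with TGACTCAGC holds both the AP-1 and the antioxidant letters. A match describes the letters only, and factor binding was not measured.

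The promoter windows that hold the AP-1 letters in 4 of the named higher genes, and the ATF4 letters in 2 of the named lower genes, are printed on the strand of the gene, with the match in capitals. They show how far the letters lie from the start, and the marked matches of SCEL, MT2A and CHAC1 are to the other strand. They lie at chr7:130293083-130293149 (CPA4, plus strand, match 48 bases before the start site, with another match 15 bases before it that the window cuts), chr1:94541933-94541999 (F3, minus strand, 210 bases), chr13:77535627-77535693 (SCEL, plus strand, 49 bases), chr16:56608450-56608516 (MT2A, plus strand, 104 bases), chr7:97872439-97872506 (ASNS, minus strand, 68 bases) and chr15:40953232-40953299 (CHAC1, plus strand, 209 bases).
CPA4: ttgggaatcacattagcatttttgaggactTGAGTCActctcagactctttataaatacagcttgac
F3: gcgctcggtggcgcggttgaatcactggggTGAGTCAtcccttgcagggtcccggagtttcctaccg
SCEL: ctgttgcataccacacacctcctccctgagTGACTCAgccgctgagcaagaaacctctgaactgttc
MT2A: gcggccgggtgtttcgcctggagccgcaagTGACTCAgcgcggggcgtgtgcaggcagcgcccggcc
ASNS: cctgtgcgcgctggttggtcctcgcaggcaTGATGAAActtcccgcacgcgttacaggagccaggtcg
CHAC1: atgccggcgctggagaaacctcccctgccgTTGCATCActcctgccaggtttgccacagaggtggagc

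The other sensitive lines received the same dose for the same time, and the difference in response was tested in 1 fit over 18 samples and 24461 genes. Against HCT-116, the response of DLD-1 was higher for 810 genes (3.31%) and lower for 585 (2.39%). Against HT-29 it was higher for 373 (1.52%) and lower for 1441 (5.89%). Both comparisons share the 6 DLD-1 samples. In the cell cycle lists, 48 of 50 G2/M genes and 28 of 50 replication genes had a higher response in DLD-1, where the medians were 0.18 and -0.18, than in HCT-116, where they were -1.77 and -1.22. Against HT-29, 29 of 40 interferon-stimulated genes and 17 of 38 NF-kB genes had a lower response in DLD-1 (medians 0.08 and -0.17, against 1.43 and 0.84 in HT-29).

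The median of the ATF4 list was -1.08 in DLD-1, -0.29 in HT-29 and -0.24 in HCT-116. Of its 39 tested members, 12 were called lower and 3 higher in HT-29, and 4 lower and 1 higher in HCT-116. Against HCT-116, 11 members had a called lower response in DLD-1 and 2 a called higher one. Against HT-29, 12 had a called lower one and 0 a called higher one. CALD1, with a log2 change of 2.05 in DLD-1, had 0.26 in HCT-116 and 0.00 in HT-29, and the differences were 1.80 ± 0.07 and 2.06 ± 0.24 (adjusted p = 7.70e-16 and 1.26e-07, edgeR). MYL9, MYLK and TPM2, also called in DLD-1, had 1.76, 1.25 and 1.12 in HT-29 and -0.10, -1.40 and 0.06 in HCT-116. The median of the contractile list was 0.43 in DLD-1, 0.69 in HT-29 and -0.10 in HCT-116. For WWC2 the changes in HCT-116 and HT-29 were 0.01 and -0.04. MLXIPL went the other way in the other lines, with -2.13 in DLD-1 and 0.50 and 1.13 in HCT-116 and HT-29. HSD3B1, a steroid dehydrogenase, had -1.26 in DLD-1 and 2.14 in HT-29, while in HCT-116 it stayed near the floor, at 0.0309 TPM under uracil and 0.108 TPM under 5-FU (log2 1.80, adjusted p = 0.0410, edgeR). For the YAP/TAZ list the median was 0.47 in DLD-1, 0.47 in HT-29 and 0.04 in HCT-116.

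**Figure D4:**
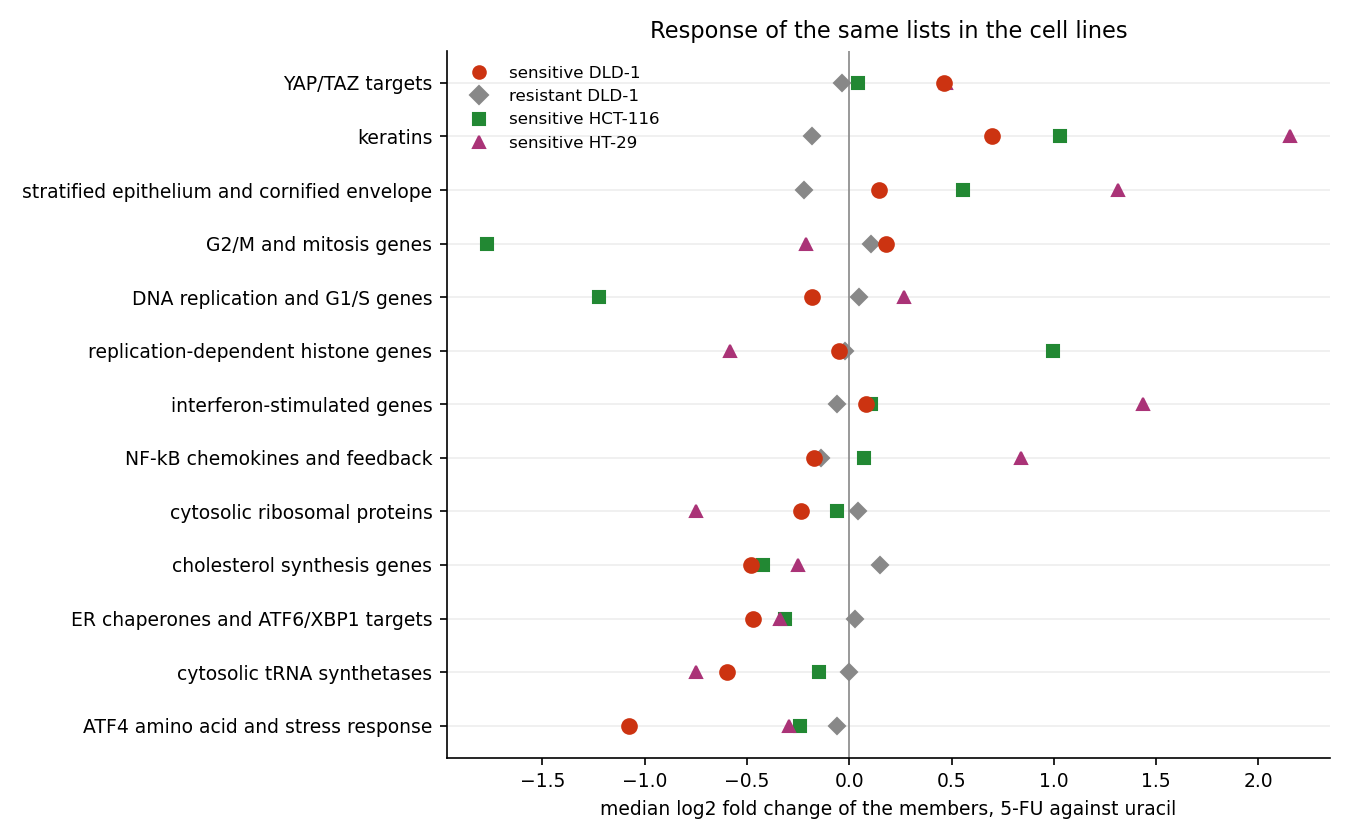
Median log2 fold change (5-FU against uracil) of the tested members of 13 gene lists in sensitive DLD-1, resistant DLD-1, sensitive HCT-116 and sensitive HT-29; each symbol is a list's median in 1 line. The G2/M list lies at 0.18 in sensitive DLD-1 and at -1.77 in HCT-116, and the resistant DLD-1 symbols lie within -0.22 and 0.15.

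In resistant DLD-1 cells the same treatment called 1 gene higher (AC087721.2) and 2 lower (CDSN and CITED4) by edgeR, and 0 in all by DESeq2. Since these cells were maintained in 5-FU, their uracil samples do not come from cells new to the drug. The test of the difference in response (resistant minus sensitive) called 199 genes higher (0.912%) and 482 lower (2.21%). In the ATF4 list 18 of 39 members had a called higher response in resistant cells and 2, PPP1R15A and CDSN, a called lower one. CDSN, corneodesmosin, is a protein of cornified epithelium rather than of amino acid supply. In the YAP/TAZ list 5 of 21, CCN1, CCN2, ANKRD1, AXL and F3, had a lower one. ASNS had a log2 change of -0.20 in resistant cells against -2.45 in sensitive ones (difference 2.25, adjusted p = 5.04e-11, edgeR), and CCN1 had 0.20 against 2.30 (difference -2.11, adjusted p = 1.00e-10, edgeR). Irradiation added to 5-FU in sensitive DLD-1 called 0 genes higher (0%) and 0 lower (0%) against 5-FU alone by edgeR and 0 by DESeq2. At an unadjusted p under 0.05 edgeR gave 2447 genes (11.2% of those tested), and at the adjusted p alone 14. DDIT4 stood at a mean of 6.49 TPM with irradiation and at 6.58 TPM without, and CCN1 at 118 and 131 TPM.

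Some genes that mark other cell types moved at low levels. CSF1R and CD68, macrophage genes, rose (0.776 to 1.73 TPM and 0.801 to 1.85 TPM), CD14 fell (2.57 to 1.23 TPM, with a log2 fold change of -0.96 without 5-FU replicate 1 and -0.95 without uracil replicate 3), and PDGFRB fell (0.314 to 0.127 TPM). The 9 listed leukocyte markers summed to 10.7, 3.65 and 4.94 TPM under uracil, the first of which held the LYZ given above, and to 4.77, 5.09 and 4.85 TPM under 5-FU, and the defining T and B cell markers CD3D and MS4A1 were at 0 in all 6 samples. In bulk RNA of 1 cell line, a change in some of the cells and a change in all of them cannot be told apart.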

How the data were processed

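RNA from 3 uracil and 3 5-FU samples of sensitive DLD-1 was compared, with 12 further DLD-1 samples in the same fit. Per the methods of the study, the authors reversed BAM files to FASTQ, checked them with FastQC 0.11.8, trimmed them with Trimmomatic 0.36 and quantified transcripts with kallisto 0.44.0 against GRCh38.p13 and Ensembl annotation. Antisense and overlapping genes may share reads, since the strand setting of kallisto is not given in the sources used here. The deposited estimated counts and the deposited TPM values are sums over the transcripts of a gene symbol, and 59.4% of the estimated counts were whole (within 1e-06).

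Estimated counts were rounded and tested with edgeR 4.0.16 (R 4.3.3; TMM scaling, filterByExpr, quasi-likelihood F-test) in 1 fit of 18 DLD-1 samples in 6 groups, and in another of 18 sensitive samples of 3 lines. A call needed a Benjamini-Hochberg adjusted p no higher than 0.01 and a log2 fold change of 1 or more in either direction. On simulated counts for 21096 genes of the 5-FU against uracil comparison, 200 of 200 genes changed by 2 on the log2 scale were recovered with 1 false call. The changed genes were drawn above a minimum expected count, and all genes had the same spread. Changes in low-count genes and changes near the fold threshold were therefore not covered. Replicates differed by more than sampling noise and none were merged. Depth per sample is given in the opening of the results; it limits the precision of genes below 1 TPM most, and estimated counts carry an assignment error beside the counting error.

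Named genes were the 10 largest changes in each direction with a mean of at least 1 TPM and no overlap between groups, up to 4 called members of each list at that level (or its 2 most abundant members where none was called), genes of 5-FU metabolism whatever their values, the 5 most abundant called genes in each direction, and the 5 in each direction whose response differed from both other lines. Other genes named were chosen after their values were seen. The members and the gene lists were chosen with earlier results of these data known. Transcript classes came from GENCODE 44 by transcript identifier, spacer matches from BLAST 2.17.0, and promoter sequences from RefSeq (GRCh38.p14). Alternatives were DESeq2 1.42.0, RLE scaling, no filter on low counts, library size alone, the deepest sample thinned, only the 6 compared samples, a replicate block, other thresholds, and leaving out each replicate in turn. The proteomic data of the study were not used here. A few items are not reported here.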

Additional observations from a re-analysis of the deposited data

Results flagged for a closer look

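The response to 5-FU differed between groups by a test of the difference itself. Against HCT-116 the DLD-1 response was higher for 810 genes and lower for 585, against HT-29 it was higher for 373 and lower for 1441, and in resistant DLD-1 it was higher for 199 and lower for 482 than in sensitive DLD-1. All 3 contrasts share the sensitive DLD-1 samples.

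Genes that differed from both lines had these differences in log2 response (DLD-1 minus HCT-116, then DLD-1 minus HT-29). Among genes higher in DLD-1 they were 1.80 and 2.06 for CALD1, 1.55 and 1.60 for WWC2, 1.84 and 3.71 for SUN3, a nuclear envelope protein, 1.63 and 1.76 for FSTL1, a secreted glycoprotein, and 1.39 and 2.05 for HHAT, the Hedgehog acyltransferase. SUN3, FSTL1 and HHAT had means of at most 0.443 TPM in DLD-1 under uracil, against 5.32, 13.7 and 1.96 TPM in HCT-116, and the DLD-1 call of FSTL1 was lost without 5-FU replicate 2, without uracil replicate 3, or with the deepest sample thinned. Among genes lower in DLD-1 they were -3.07 and -3.41 for HSD3B1, -2.83 and -3.21 for DPEP1, a dipeptidase, -2.66 and -3.29 for MLXIPL, -2.67 and -2.54 for VLDLR, and -3.59 and -2.75 for AC006449.7. In HCT-116, HSD3B1 and VLDLR lay at 0.108 TPM or less in both group means, and their changes there had adjusted p of 0.0410 and 0.0370 (edgeR). The part of differing baseline levels in these differences was not tested.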

How the results depend on the processing

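The counts of 580 higher and 298 lower genes stayed within 1.5 times under DESeq2 (548 and 284), RLE scaling, thinning of the deepest sample (580 and 294), library size alone (758 and 212), the 6 samples alone (654 and 303) and omission of the filter on low counts (704 and 340). They left that range with a log2 threshold of 2 (82 and 35) and with the adjusted p alone (3142 and 4433). Leaving out 1 replicate gave 472 to 612 higher and 264 to 294 lower genes. For 5-FU with irradiation against 5-FU, 0 and 0 became 21 and 21 with no filter on low counts. With a replicate block the counts were 563 and 295, and 192 and 457 for the resistant minus sensitive response. No pairing by replicate number was seen: deviations of same-numbered samples correlated at -0.0368, 0.00698 and 0.00272. This check ran over all tested genes, where the noise of low counts can hide a pairing, so it cannot exclude one. With library size alone, which moved the median of all tested genes by 0.10, the medians of 12 of 45 lists changed sign, each of them under 0.1 in size in the fit reported. Without uracil replicate 1 the median of complement regulators turned from -0.08 to 0.02, and without uracil replicate 2 that of mitochondrial mRNAs to 0.04. With library size alone, ZNF25 (-0.96), ZNF624 (-0.92), DDX60 (-0.97) and CD14 (-0.94) also ended short of the fold threshold. The causes were not tested. Depth limits genes under 1 TPM: 4 higher genes (AP001972.5, CSF2RB, CYP3A7-CYP3A51P and Z83844.1) had 3 or fewer counts in every uracil sample and 3 lower genes (LSP1, SPERT and TGM3) in every 5-FU sample, so their folds depend on the prior count.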

Other observations

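Several lists held few or no calls. Of 18 tested heat shock genes, which encode cytosolic chaperones, 0 were called, 11 fell and 0 rose at the adjusted p alone (edgeR), and the median log2 fold change was -0.27. Of 31 splicing factors 0 were called and 14 fell and 3 rose at the adjusted p alone (median -0.18). In the list of 43 EGFR ligands and MAPK feedback genes, SPRED3, an inhibitor of RAS signalling, rose from 0.799 ± 0.173 to 1.88 ± 0.405 TPM (SD, n = 3; log2 1.35). In the 20 TGF-beta and BMP targets, PMEPA1, a feedback inhibitor of that pathway, rose from 2.56 ± 0.0377 to 5.38 ± 0.564 TPM (log2 1.09). The ZNF-named genes, mostly zinc finger factors, had 2 called higher and 4 lower of 454. Among 26 epithelial-mesenchymal transition genes, 18 replication-dependent histone genes, 39 lysosome and autophagy genes and 19 genes of MHC class I presentation, 0 were called, with medians of 0.22, -0.05, -0.10 and -0.05. The lists of snoRNA hosts, polyamine genes, aldehyde dehydrogenases, complement regulators and AHR targets also had 0 called members, with medians between -0.26 and 0.08.

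Some abundant changes belonged to none of the lists. C4BPB, a chain of the complement regulator C4b-binding protein, stood at a mean of 54.5 TPM under uracil and 162 TPM under 5-FU (log2 1.47, edgeR). H19, the imprinted noncoding RNA, fell from 191 to 65.4 TPM (log2 -1.65), and CDKN1C, an imprinted cell cycle inhibitor of the same chromosomal region, fell from 13.1 to 5.61 TPM (log2 -1.41). IL1RN, the interleukin 1 receptor antagonist, rose from 6.43 to 19.1 TPM (log2 1.46). These genes were chosen after their values were seen.

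LGALS4, an intestinal galectin, stood at 4.25 TPM in uracil replicate 1 and at 1.08 to 1.49 TPM in the other 5 samples, against 407 ± 10.8 TPM in uracil-treated HT-29. This is the library in which LYZ and GPX2 were also higher, and the part of such RNA in other results was not tested.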
